A study of Mus musculus with 4 samples.

Results

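Activins, inhibins and bone morphogenetic proteins (BMPs) are secreted ligands of the TGF-beta superfamily. A total of 10 genes of this signalling system were described, taken as a fixed list of ligand subunits, an antagonist and receptors from the 78275 genes of the count table. They were the inhibin and activin subunit genes Inha, Inhba and Inhbb, the ligand gene Bmp4, the antagonist gene Fst, the activin receptor genes Acvr1b, Acvr2a and Acvr2b, and the BMP receptor genes Bmpr1a and Bmpr2. All 10 passed the filter on low counts and were among the 19736 genes tested. The libraries came from testes of 129S1/Sv mice at postnatal day 5, with 2 libraries from wild-type mice (WT) and 2 from Sirt7-/- mice (Sirt7_KO), which lack the nuclear deacetylase SIRT7. Each was made from a pellet of 200000 cells from a suspension in which plating had depleted somatic cells without a sort. The study's methods describe the 2 libraries of a genotype as separate biological replicates, and whether animals were pooled for a pellet is not given in the sources used here. The study asked whether loss of SIRT7 goes with altered transcription in spermatogonia.

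An activin is a dimer of beta subunits, encoded by Inhba and Inhbb. Joining of a beta subunit with the alpha subunit, encoded by Inha, gives an inhibin, which opposes activin. Activins bind the type II receptors ACVR2A and ACVR2B, which recruit the type I receptor ACVR1B and lead to phosphorylation of SMAD2 and SMAD3. BMPs act through type II receptors such as BMPR2 and type I receptors such as BMPR1A on SMAD1, SMAD5 and SMAD9. In the testis, Sertoli cells are the main source of inhibin, which restrains pituitary secretion of follicle-stimulating hormone, and BMP4 is known to act on spermatogonia through BMPR1A.

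Total counts ran from 22007504 to 22181066 per library. Sirt7 was at 704 and 692 counts in WT and at 129 and 122 in Sirt7_KO, or -2.47 ± 0.11 as a log2 fold change with its SE (edgeR, adjusted p = 3.63e-06). In the same fit 17 genes were called, 8 higher and 9 lower. The 10 germ cell markers examined summed to 1838 to 2053 CPM (counts scaled to a common library size of 1000000) and overlapped between the genotypes. Sertoli cell markers were also present, and none of the 12 was at 0. They summed to 2188 and 2176 CPM in WT and to 1929 and 2479 CPM in Sirt7_KO, so the Sirt7_KO libraries lay on both sides of WT. Of the other marker lists, fibroblast markers had 5 of 9 genes called lower, against 0.0861% of all genes tested called in either direction. The marker lists were chosen with earlier results of these data known. Fibroblast sums were 803 and 879 CPM in WT and 664 and 764 CPM in Sirt7_KO. Erythroid markers summed to 614 and 548 CPM in WT and to 921 and 686 CPM in Sirt7_KO. The peritubular myoid, Leydig, endothelial and leukocyte sums overlapped between the genotypes. In bulk samples such as these, fewer cells of a type and less RNA per cell cannot be told apart.

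The 10 genes covered a wide range of levels, and their order was nearly the same in the 4 libraries. Levels were compared per length, as TPM, which scales counts per base to a total of 1000000. Inha was highest at 176 ± 13.7 TPM (SD over 4 libraries), above 96.4% of the genes tested. Inhbb followed at 124 ± 11.6 TPM and Bmpr1a at 82.1 ± 4.04 TPM. No library of these 3 genes overlapped with one of the next gene in the order. Bmpr2 came next at 19.2 ± 1.91 TPM. Its lowest library, at 16.94 TPM, stood just above the highest of Inhba at 16.93 TPM, and the highest of Acvr1b was at 16.5 TPM. Bmp4 was lowest in every library, at 4.49 ± 0.498 TPM, above 38.2% of the genes tested. From Inha to Bmp4 the mean levels spanned 39.3-fold.

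The middle of the order was close. Acvr1b was at 15.8 ± 0.539 TPM, Fst at 14.4 ± 0.450 TPM, Acvr2a at 13.8 ± 0.659 TPM and Inhba at 13.5 ± 2.57 TPM. Inhba ran from 11.0 to 16.9 TPM and so overlapped each of the other 3, and Fst and Acvr2a overlapped as well. Acvr1b and Fst did not overlap, but their order turned when the longest transcript (12.8 and 18.2 TPM) replaced the exon union as the length. Inhba held rank 5 in WT replicate 1 and rank 8 in the other 3 libraries. Acvr2b held rank 9 in every library, at 10.4 ± 0.532 TPM.

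**Figure D1:**
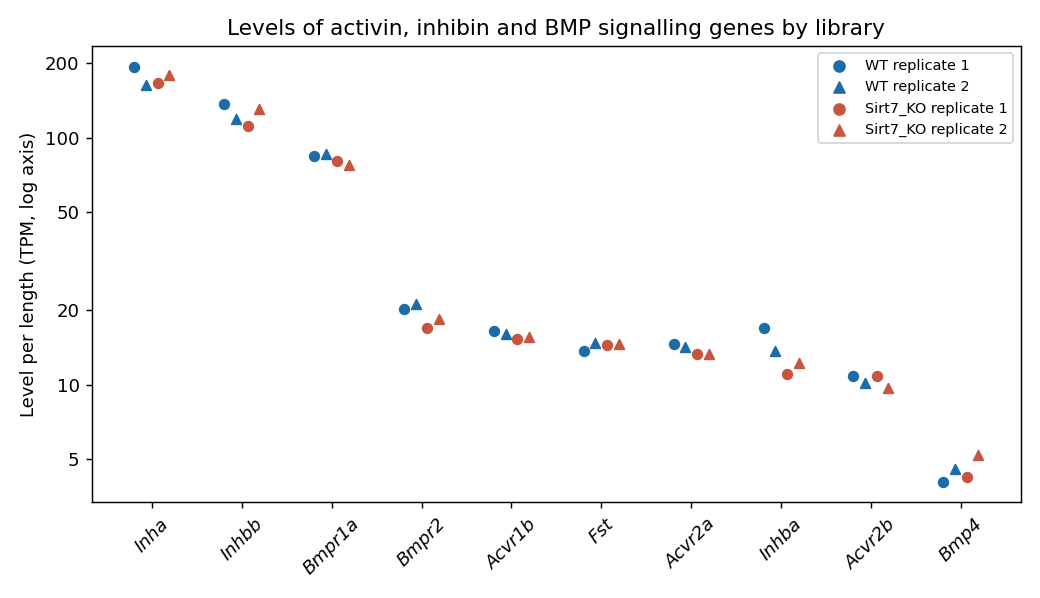
Level per length of each gene in each library, in TPM on a log axis, with genes ordered by their mean. Circles are replicate 1 and triangles replicate 2, WT in blue and Sirt7_KO in red. Inha, Inhbb and Bmpr1a stand above the other genes, and Bmp4 lies lowest at 4.04 to 5.16 TPM.

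None of the 10 genes was called between the genotypes. The background with edgeR was 0.0861% of the genes tested. DESeq2 and limma-voom also called 0 of the 10. Over all genes DESeq2 called 48 of the 14333 with an adjusted p, and limma-voom called 12 of 19736. At an unadjusted p under 0.05, Inhba and Bmpr2 were lower in Sirt7_KO with edgeR, 2 of 10 against 8.62% of all genes tested. With DESeq2 1 of the 10 had such a p, against 712 genes over the whole count table. With limma-voom 2 of the 10 did, against 1720 of 19736 genes. Of the 10 genes 4 had a positive log2 fold change and 6 a negative one, with a median of -0.03 against 0.00 over all genes tested. The median size of the change regardless of sign was 0.07 on the log2 scale. Over the 10678 tested genes whose mean CPM lay between those of Bmp4 and Inha it was 0.08.

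In 6 of the 10 genes the libraries of the genotypes did not overlap, compared with 39.7% of all genes tested. The Sirt7_KO libraries were both under the lower WT library for Inhba, Acvr1b, Acvr2a, Bmpr1a and Bmpr2, 5 of 10 against 19.4%, and both over the higher one for Fst, 1 of 10 against 20.3%. For Acvr1b and Fst this separation was narrow. For Acvr1b the lower WT library stood at 21.35 CPM against 21.34 CPM in the higher Sirt7_KO library. For Fst the closest libraries stood at 19.4 CPM for WT and 19.8 CPM for Sirt7_KO.

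**Figure D2:**
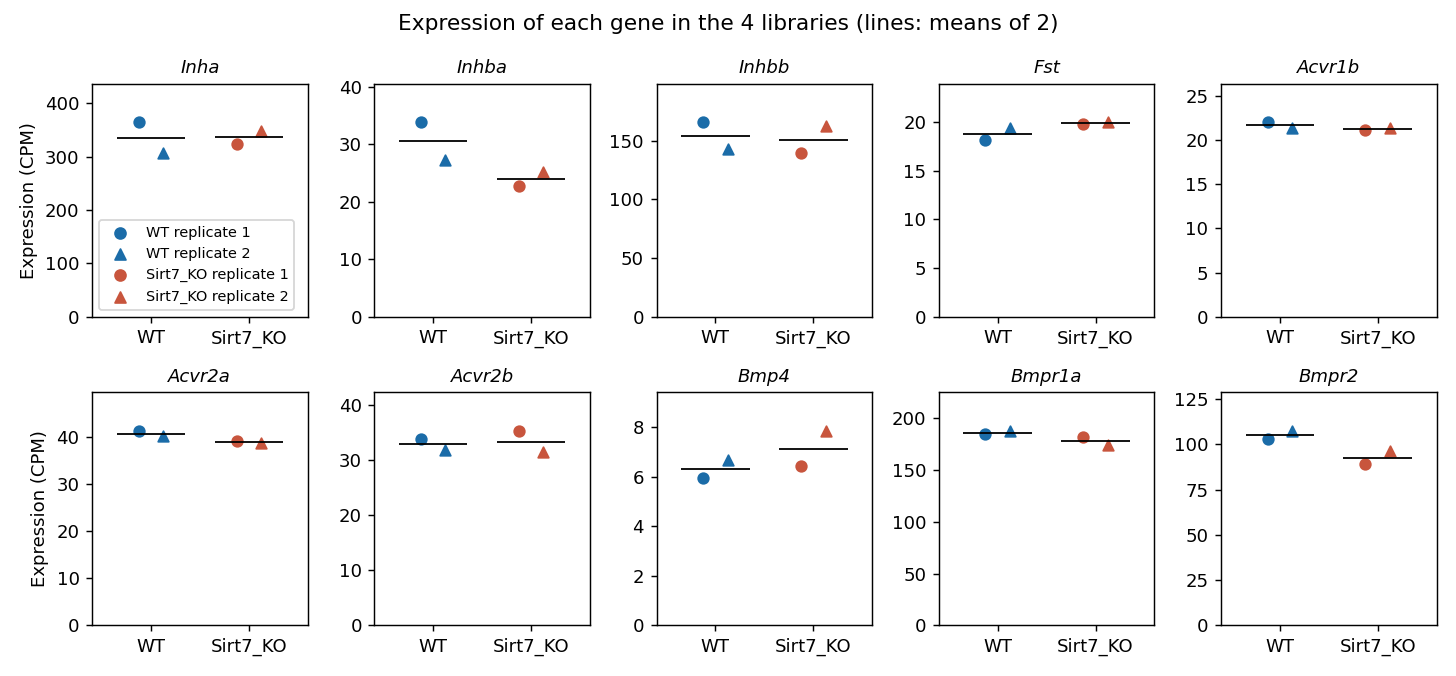
Expression of each of the 10 genes in CPM, with each axis starting at 0. Circles are replicate 1 and triangles replicate 2, WT in blue and Sirt7_KO in red, and lines mark the mean of the 2 libraries. Inhba runs from 27.3 to 33.8 CPM in WT and from 22.7 to 25.1 CPM in Sirt7_KO, and for Inha the genotypes overlap.

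Among the ligand subunits, Inha (ENSMUSG00000032968, chromosome 1 from 75482196 to 75489223, GRCm39) encodes the alpha subunit that defines inhibins. It was at 364 and 306 CPM in WT and at 324 and 348 CPM in Sirt7_KO. Both Sirt7_KO libraries thus lay between the WT libraries. Its log2 fold change was 0.00 ± 0.08 (SE), with a 95% interval from -0.18 to 0.18, or 0.885-fold to 1.14-fold. Of its 6678 exonic bases, 1099 are shared with Obsl1 on the opposite strand, so some of its reads may not be separable.

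Inhbb (ENSMUSG00000037035, chromosome 1 from 119343193 to 119350021) encodes the beta B subunit of activin B and inhibin B. It was at 166 and 143 CPM in WT and at 139 and 162 CPM in Sirt7_KO, and the genotypes overlapped. The estimate was -0.03 ± 0.09, with an interval from 0.852-fold to 1.12-fold.

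Inhba (ENSMUSG00000041324, chromosome 13 from 16186373 to 16206206) encodes the beta A subunit of activin A and inhibin A. It was counted 745 and 604 times in WT and 500 and 552 times in Sirt7_KO, or 33.8 and 27.3 CPM against 22.7 and 25.1 CPM. Both Sirt7_KO libraries were below both WT libraries, and WT replicate 1 stood highest. Means were 30.5 ± 4.64 CPM for WT against 23.9 ± 1.69 CPM for Sirt7_KO (SD, n = 2 each). The log2 fold change of -0.35 ± 0.11 (adjusted p = 0.466, edgeR) was the largest among the 10 genes and larger in size than that of 85.7% of the genes tested. The interval ran from 0.658-fold to 0.933-fold before adjustment (unadjusted p of 0.0108). Without WT replicate 1 the log2 fold change was -0.19 and without WT replicate 2 it was -0.50. It was -0.28 without Sirt7_KO replicate 1 and -0.42 without Sirt7_KO replicate 2.

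Inha and Inhbb differed between the libraries of each genotype by more than counting error, and Inhba did so in WT only. Of the 10 genes 5 had such a pair of libraries, and the others were Acvr2b and Bmpr2, both in Sirt7_KO. WT replicate 1 was above WT replicate 2 by 1.19-fold for Inha (95% interval from counting alone, 1.15 to 1.23), 1.24-fold for Inhba (1.11 to 1.38) and 1.16-fold for Inhbb (1.10 to 1.22). Between the same WT libraries the summed Sertoli markers stood at a ratio of 1.01, and the sums of the marker lists ran from 0.763 (endothelial) to 1.14 (Leydig). Sirt7_KO replicate 1 was at 0.932 of Sirt7_KO replicate 2 for Inha (0.902 to 0.962), 0.857 for Inhbb (0.816 to 0.899) and 0.905 for Inhba (0.800 to 1.02). The Sertoli sum of Sirt7_KO replicate 1 was at 0.778 of that of replicate 2 and the Leydig sum at 1.11, within a range over the lists from 0.721 (peritubular myoid) to 1.34 (erythroid). As a percentage of the Sertoli sum within a library, Inha was at 16.6% and 14.1% in WT and at 16.8% and 14.0% in Sirt7_KO, and the genotypes overlapped. On the same measure Inhba was at 1.55% and 1.25% in WT and at 1.18% and 1.01% in Sirt7_KO, which did not overlap. The part of cell composition in these values was not tested.

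Bmp4 (ENSMUSG00000021835, chromosome 14 from 46620250 to 46636745) encodes a BMP ligand with roles in germ cell formation and in the response of spermatogonia. It was the least counted of the 10 genes, at 131 and 148 counts in WT and 141 and 172 counts in Sirt7_KO. Its level was 5.95 and 6.68 CPM in WT and 6.41 and 7.83 CPM in Sirt7_KO, with the lower Sirt7_KO library between the WT libraries. The log2 fold change was 0.17 ± 0.16, and its interval from 0.886-fold to 1.43-fold was the widest among the 10 genes. With 1 library left out the estimate ran from 0.03, without Sirt7_KO replicate 2, to 0.31, without Sirt7_KO replicate 1. Bmp4 shares 1178 of its 5242 exonic bases with Gm15222 on the opposite strand, so some of its reads may not be separable.

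Fst (ENSMUSG00000021765, chromosome 13 from 114588731 to 114595521) encodes follistatin, a secreted protein that binds activin and keeps it from its receptors. It was at 18.2 and 19.4 CPM in WT and at 19.8 and 19.9 CPM in Sirt7_KO. On the log2 scale the difference was 0.08 ± 0.10, with an interval from 0.912-fold to 1.23-fold.

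Among the activin receptors, Acvr2a (ENSMUSG00000052155, chromosome 2 from 48703743 to 48793283) and Acvr2b (ENSMUSG00000061393, chromosome 9 from 119231103 to 119271213) encode the type II receptors that bind the ligand. Acvr2a was at 41.2 and 40.2 CPM in WT and at 39.1 and 38.6 CPM in Sirt7_KO. The separation was small, at a log2 fold change of -0.07 ± 0.08 with an interval from 0.845-fold to 1.08-fold. Acvr2a shares 3081 of its 10088 exonic bases with Orc4 on the opposite strand, so that its reads are also uncertain. Acvr2b was at 33.9 and 31.9 CPM in WT and at 35.3 and 31.4 CPM in Sirt7_KO. Here each Sirt7_KO library lay outside the WT libraries on a different side, and the log2 fold change was 0.02 ± 0.09 (0.881-fold to 1.17-fold). Acvr2b shares 1471 of its 11188 exonic bases with 4930516B21Rik on the opposite strand, so some of its reads may not be separable. Acvr1b (ENSMUSG00000000532, chromosome 15 from 101071921 to 101111565) encodes the type I receptor kinase that activin engages. It was at 22.0 and 21.3 CPM in WT and at 21.1 and 21.3 CPM in Sirt7_KO, with a log2 fold change of -0.03 ± 0.09 (0.849-fold to 1.13-fold). The 4 libraries of Acvr1b lay within 1 CPM of each other.

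Among the BMP receptors, Bmpr1a (ENSMUSG00000021796, chromosome 14 from 34132687 to 34225379) encodes a type I receptor kinase, also known as ALK3. It was at 184 and 187 CPM in WT and at 181 and 173 CPM in Sirt7_KO. The log2 fold change of -0.07 ± 0.06 had the narrowest interval among the 10 genes, from 0.870-fold to 1.05-fold.

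Bmpr2 (ENSMUSG00000067336, chromosome 1 from 59802544 to 59918173) encodes the type II receptor kinase of BMPs. It was counted 2265 and 2374 times in WT and 1959 and 2114 times in Sirt7_KO, or 103 and 107 CPM against 89.1 and 96.2 CPM. Both Sirt7_KO libraries were below both WT libraries. Means were 105 ± 3.04 CPM for WT against 92.6 ± 5.05 CPM for Sirt7_KO (SD, n = 2 each). The log2 fold change was -0.18 ± 0.07 (adjusted p = 0.508, edgeR), and its interval from 0.794-fold to 0.981-fold ended below 1 before adjustment (unadjusted p of 0.0246). Without Sirt7_KO replicate 2 it was -0.23 (adjusted p = 0.129) and without Sirt7_KO replicate 1 it was -0.13 (adjusted p = 0.542).

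**Figure D3:**
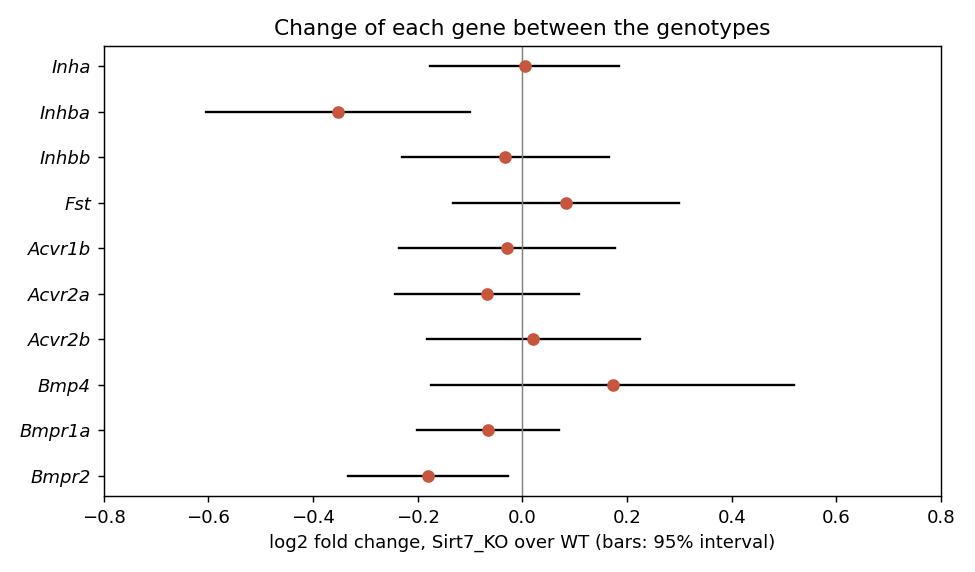
Log2 fold change of each of the 10 genes, Sirt7_KO over WT, with points for the estimate and bars for its 95% interval before adjustment. The intervals of Inhba (-0.60 to -0.10) and Bmpr2 (-0.33 to -0.03) lie below 0, and those of the other 8 genes include it.

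Ratios between genes were then taken within each library from the TPM, since they do not depend on scaling between libraries. Inhba was at 0.124 and 0.115 of Inhbb in WT and at 0.0988 and 0.0936 in Sirt7_KO, so that beta B transcripts were the more abundant in every library. The difference in this ratio was -0.31 on the log2 scale, and the genotypes did not overlap (SD 0.07 in WT and 0.06 in Sirt7_KO). An exact two-sided permutation test gave p = 0.333, the smallest that 2 against 2 libraries allow. Inha stood at 1.26 and 1.24 times the sum of Inhba and Inhbb in WT and at 1.37 and 1.26 times in Sirt7_KO. This ratio differed by 0.07 on the log2 scale (exact permutation p = 0.333), by 0.02 without Sirt7_KO replicate 1 and by 0.13 without Sirt7_KO replicate 2.

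The other ratios were as follows. Fst was at 0.0890 and 0.111 of the summed beta subunits in WT and at 0.118 and 0.102 in Sirt7_KO, with overlap between the genotypes (exact permutation p = 0.667). The difference of 0.15 on the log2 scale became -0.01 with WT replicate 1 left out and 0.31 with WT replicate 2 left out. Acvr2a was at 1.35 and 1.40 times Acvr2b in WT and at 1.23 and 1.36 times in Sirt7_KO, also with overlap (exact permutation p = 0.667). Its difference of -0.09 ran from -0.16 without Sirt7_KO replicate 2 to -0.01 without Sirt7_KO replicate 1. Bmpr1a was at 4.17 and 4.07 times Bmpr2 in WT and at 4.74 and 4.20 times in Sirt7_KO. The latter ratio was 0.12 higher in Sirt7_KO on the log2 scale without overlap (exact permutation p = 0.333). It was 0.03 higher without Sirt7_KO replicate 1 and 0.20 higher without Sirt7_KO replicate 2. Over the 5 ratios no p could pass 0.05, with or without adjustment. The level of a ratio depended on the length used. With the longest transcript, means over the 4 libraries went from 1.28 to 1.64 (Inha to beta subunits) and 0.105 to 0.166 (Fst to beta subunits). The others went from 0.108 to 0.118 (Inhba to Inhbb), 1.33 to 1.40 (Acvr2a to Acvr2b) and 4.29 to 3.49 (Bmpr1a to Bmpr2).

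A further 78 genes of the pathway were followed by role, and 67 of them passed the filter on low counts. None of the 67 was called by edgeR, against a background of 0.0861%. DESeq2 called none of the 58 pathway genes to which it gave an adjusted p, against 48 of 14333 genes. Limma-voom called none of the 67, against 12 of 19736 genes. At an unadjusted p under 0.05, 6 were higher and 1 lower in Sirt7_KO by edgeR, compared with 885 higher and 817 lower of 19736 genes. The count at that p was 3 with DESeq2, against 712 genes over the whole count table. With limma-voom it was 7, against 1720 of 19736 genes. The median log2 fold change of the 67 was 0.04.

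Ligands other than those above had the largest estimates, those of Bmp5 and Inhbe, at low mean levels of 1.64 and 0.590 CPM. No comparison matched on level was made for this list. Of 13 tested, 10 had positive values, compared with 9992 of the 19736 genes tested, and the median was 0.10 against 0.00. For 7 of the 13 the Sirt7_KO libraries were both over the higher WT library, compared with 20.3% of all genes tested. Bmp5, a BMP ligand of the BMP7 subgroup, was at 26 and 21 counts in WT and at 50 and 47 counts in Sirt7_KO. Its libraries did not overlap between the genotypes, and the log2 fold change was 1.05 ± 0.26 (adjusted p = 0.281, edgeR). Bmp2, the ligand closest to BMP4 in sequence, was at 4.86 and 4.11 CPM in WT and at 7.23 and 5.73 CPM in Sirt7_KO, again without overlap (0.53 ± 0.18; adjusted p = 0.475, edgeR). Amh, the Sertoli cell hormone that makes the Müllerian ducts regress, was at 0.05 ± 0.06, and Tgfb2 at -0.24 ± 0.13. Chosen after its values were seen, the activin beta E gene Inhbe was at 7 and 11 counts in WT and at 17 counts in each Sirt7_KO library (0.92 ± 0.40; adjusted p = 0.575, edgeR). The ligand genes Inhbc, Bmp15, Mstn, Nodal and Gdf3 did not pass the filter, with at most 9 counts in a library, and Mstn had 0 counts in all 4.

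The other receptors had a median log2 fold change of 0.02 over 12 tested. The most counted were Tgfbr1, the type I receptor of TGF-beta, at -0.08 ± 0.06, and Amhr2, the receptor of AMH, at -0.11 ± 0.09. Acvrl1, an endothelial type I receptor also known as ALK1, was at 22.2 and 20.9 CPM in WT and at 16.8 and 17.6 CPM in Sirt7_KO, without overlap (-0.33 ± 0.10; adjusted p = 0.434, edgeR). Endothelial markers summed to 79.4 and 104 CPM in WT and to 79.8 and 81.3 CPM in Sirt7_KO, with all 5 markers above 0. Their median log2 fold change was -0.27, and their part in the value of Acvrl1 was not tested. Rgma, a BMP co-receptor, was at 0.27 ± 0.10.

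Of the other antagonists 10 were tested, with a median of 0.04. Fstl3, a follistatin-like activin antagonist, was at 9.26 and 8.76 CPM in WT and at 10.8 and 11.7 CPM in Sirt7_KO, without overlap (0.32 ± 0.12; adjusted p = 0.511, edgeR). The pseudoreceptor gene Bambi was at 0.18 ± 0.10, and the most counted antagonists, Crim1 and Twsg1, which bind BMPs, at -0.15 ± 0.10 and 0.01 ± 0.07. Grem1, Sostdc1, Cer1, Lefty1 and Lefty2 did not pass the filter. Among the 6 proteases of ligand processing, Furin was at -0.03 ± 0.08, Bmp1 at 0.07 ± 0.08 and Tll1 at 0.40 ± 0.34.

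The SMAD genes and their modulators were the most even list, with a median of -0.01 and a range from -0.18 to 0.12 over 16 tested. Fkbp1a, whose product binds type I receptors, was at 0.00 ± 0.06, and the SMAD corepressor genes Ski and Skil at 0.04 ± 0.06 and -0.08 ± 0.07. Smurf1, a ubiquitin ligase for SMADs, was at -0.14 ± 0.07. Of 10 known target genes of the pathway, 7 had positive values, compared with 9992 of the 19736 genes tested. Their median was 0.06 against 0.00. Id3, an inhibitor of basic helix-loop-helix factors and a known BMP target, was at 65.7 and 70.6 CPM in WT and at 76.3 and 90.1 CPM in Sirt7_KO, without overlap (0.29 ± 0.09; adjusted p = 0.431, edgeR). The other ID genes of the list, chosen after their values were seen, were Id1 (0.06 ± 0.10), Id2 (0.06 ± 0.09) and Id4 (-0.09 ± 0.11). Ccn2, a known TGF-beta target, was at -0.10 ± 0.10, and Tgif1, which encodes a SMAD corepressor, at 0.15 ± 0.07.

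**Figure D4:**
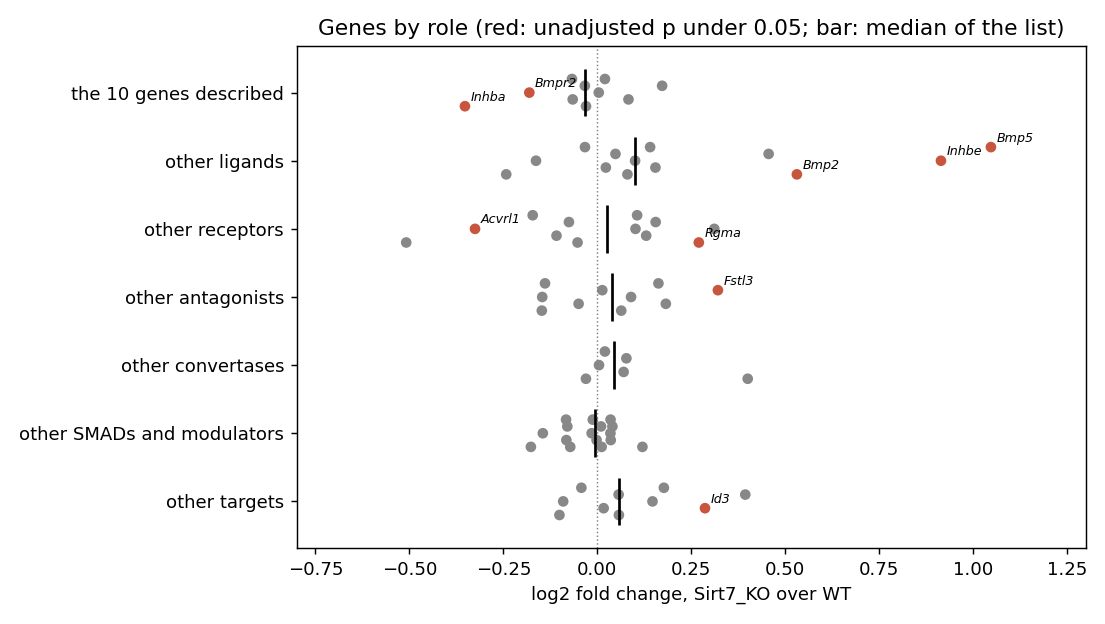
Log2 fold changes, Sirt7_KO over WT, of the 10 genes described and of the 67 other pathway genes tested, by role. Each point is a gene, red points have an unadjusted p under 0.05 and black bars are list medians. The list medians lie between -0.03 and 0.10, and the SMAD list spans -0.18 to 0.12.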

How the data were processed

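RNA-seq was measured in 2 WT and 2 Sirt7_KO spermatogonia-enriched samples, grouped by their labels. Per the study's methods and the labels, the authors aligned filtered reads to GRCm39 with HISAT2, and the deposited values are raw counts per gene from featureCounts. Tool versions, annotation, strand setting and handling of multiply aligned reads were not given in the sources used here, so reads of antisense neighbours may not be separable. Of 78275 identifiers, 78263 matched GENCODE M39 (GRCm39) once the version was removed, and all 10 genes described had a single identifier per symbol.

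Genotypes were compared with the quasi-likelihood test of edgeR 4.0.16 in R 4.3.3 (TMM scaling, filterByExpr with a minimum count of 10, no covariates), and p-values were adjusted by Benjamini-Hochberg over 19736 genes and called under 0.1. The 95% intervals are per gene and unadjusted. CPM is TMM-scaled. TPM divides counts by exon-union length. Alternatives were DESeq2 1.42.0, limma-voom (limma 3.58.1), other scalings and filters, an adjusted p under 0.05, a replicate block, longest-transcript lengths and leaving out each library. The genes, the role lists and the marker lists were chosen with earlier results of these data known. From each role list the text names every called gene, and up to 4 more (the 2 highest in mean CPM and the 2 lowest in p). A gene of the target list is not reported here and was left out of its counts. Other names are given as chosen after their values were seen.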

Additional observations from a re-analysis of the deposited data

How the results depend on the processing

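None of the 10 genes was called under any of the 11 other fits or at an adjusted p under 0.05, and the smallest adjusted p, 0.129, was that of Bmpr2 without Sirt7_KO replicate 2. Of 110 log2 fold changes recomputed, 103 kept their direction. Inha was at -0.0064 with total-count scaling, and with 1 library left out it ran from -0.11 to 0.14, Inhbb from -0.144 to 0.0794 and Acvr2b from -0.0650 to 0.106. The other pathway genes gave 0 to 3 calls with 1 library left out. The 3 were Tgfb2 (-0.52) and Crim1 (-0.34), both lower, and Bmp2 (0.69), higher, without Sirt7_KO replicate 2. Deviations of same-numbered libraries correlated at 0.04 over 19736 genes, so the numbers were not taken to pair them. A fit with the replicate block called 2 pathway genes, Bmp5 and Id3, and 0 of the 10. Over all genes the main count of 17 became 236 with the block, 48 with DESeq2, 9 at an adjusted p under 0.05, 0 without a filter on low counts (2032 genes below an unadjusted 0.05) and 0 to 465 with 1 library left out. Removing either WT library left 0 calls, with 596 (replicate 1 removed) and 824 (replicate 2 removed) genes below an unadjusted 0.05, and removing Sirt7_KO replicate 1 or 2 left 8 or 465. Sirt7 was at -2.46 without a filter (adjusted p = 0.433) and from -2.51 to -2.42 with 1 library left out, where its adjusted p was 0.678 and 0.550 once WT replicate 1 or WT replicate 2 was removed. The cause of these shifts was not tested. Per length, the span from the highest to the lowest of the 10 genes was 33.8-fold with the longest transcript and 39.2-fold with RPKM. With 2 libraries a group, the 95% intervals of 8 of the 10 genes included no change.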
